A study of Mus musculus with 9 samples.

Results

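miR-22 is 1 microRNA gene whose hairpin yields a mature RNA from each arm, miR-22-3p (mmu-miR-22-3p in the files) and miR-22-5p (mmu-miR-22-5p). They were taken by name from the array annotation, as 2 of the 1881 mouse miRNAs on the array and 4 of its 4415 mouse miRNA probes, and each probe was read separately. Probes A_54_P1309 and A_54_P1310 report miR-22-3p, and probes A_54_P3450 and A_54_P3451 report miR-22-5p. Each probe stands on 15 spots of every array.

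Liver miRNA was measured on 9 one-colour Agilent arrays, 3 in each of 3 groups of male mice of the inbred strain C57BL/6J, whose livers were taken at 20 weeks of age. The metformin group was fed for 17 weeks on a diet in which fat supplied 45% of the energy, and received metformin, a glucose-lowering drug, into the stomach at a stated 3 mg per kg per day over the final 5 weeks. The high fat diet group ate the same diet for the same time and received saline vehicle over those 5 weeks, which began at 15 weeks of age after 12 weeks of the diet. The control group ate chow for 17 weeks, and no vehicle is named for it in the labels. Every sample mixed liver tissue of 4 mice of its group, so replicates here are pools and not single mice. Replicate arrays of a group are called by their number in the labels.

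A miRNA is cut from a hairpin transcript and loaded into Argonaute, where bases 2 to 8 of the mature strand, the seed, pair with target mRNAs and lower their output. In most mouse tissues miR-22-3p is the strand that is kept and miR-22-5p the one that is largely discarded. Reported targets of miR-22-3p include Sirt1, a deacetylase of metabolic regulators, and mice that lack miR-22 have been reported to respond differently from wild type to a fat-rich diet. A bulk level of this kind cannot tell fewer cells of a type from less miRNA per cell.

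The mature sequences are shown because they define what the 2 sets of probes report. They and the hairpin come from RefSeq on build GRCm38.p6, where miR-22-5p lies at chr11:75463734-75463755 and miR-22-3p at chr11:75463772-75463793, both on the plus strand and within the lncRNA gene Mir22hg. The array files name an older build, and these positions are not theirs. Capitals mark the seed:
miR-22-3p: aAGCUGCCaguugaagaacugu
miR-22-5p: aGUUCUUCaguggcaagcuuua
The hairpin of 95 bases lies at chr11:75463716-75463810, and here the capitals mark the 5p arm and then the 3p arm:
mir-22 hairpin: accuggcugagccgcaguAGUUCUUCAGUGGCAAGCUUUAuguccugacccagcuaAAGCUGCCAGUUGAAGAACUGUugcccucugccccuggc
Each mature strand is 22 bases long, with a GC content of 45.5% for miR-22-3p and 40.9% for miR-22-5p, and 16 bases lie between the arms. A fold predicted with RNAfold 2.7.2 had 36 base pairs, 19 of them between the arms, at a free energy of -41.9 kcal/mol, and it paired 7 of the 7 seed bases of miR-22-3p. None of the 1677 other mature mouse miRNAs in the RefSeq table shared the seed of either arm (0 for each). The longest run of bases shared with another mature miRNA was 9 for miR-22-3p, with miR-3966, and 10 for miR-22-5p, with miR-146a-3p.

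The arrays had to be read with their edges in mind. On 6 of the 9 arrays (1 metformin, 2 high fat diet and 3 control arrays), columns at 1 or both edges held spots of bright probes with little or no signal. Between 31.1% and 53.6% of the spots of those arrays lay in such strips. The strips moved with the groups, in 1 of 3 metformin, 2 of 3 high fat diet and 3 of 3 control arrays. Of the spots of miR-22-3p on those arrays, 46 of A_54_P1309 and 38 of A_54_P1310 lay in the strips. On high fat diet array 1, for example, A_54_P1309 had a median intensity of 1.66 over its 11 spots inside the strip and of 428 over its 4 spots outside it. The levels below leave the strips out on each array, and values from all spots are given beside them.

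**Figure D1:**
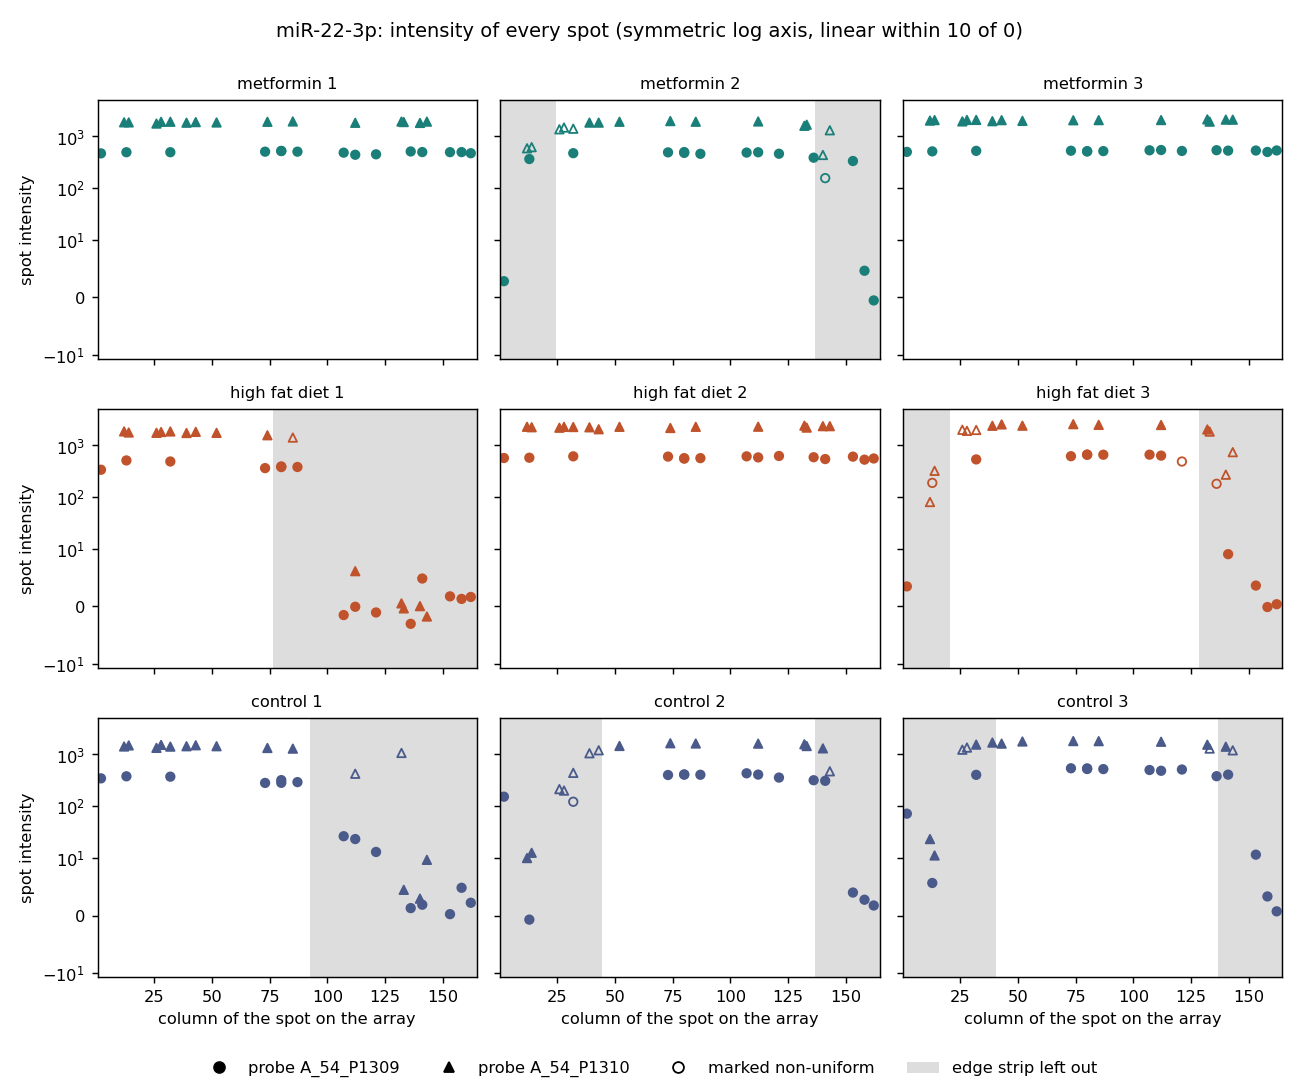
Spot intensity of the 2 miR-22-3p probes on each array (y axis, arbitrary intensity units, symmetric log scale that is linear within 10 of 0) against the column of the spot (x axis), for the metformin, high fat diet and control arrays from the top. Circles are A_54_P1309, triangles A_54_P1310, open symbols spots marked non-uniform, and grey bands the strips left out. No spot outside the bands is near 0. Many inside them are, while some inside are as bright as those outside.

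miR-22-3p was detected on every array, and no difference in its level between the groups was resolved. With the strips left out, the highest and lowest of the 9 arrays were 1.21-fold apart for A_54_P1310 and 1.39-fold apart for A_54_P1309. For both probes the group means stood in the order metformin, high fat diet, control, but the arrays of every pair of groups overlapped, and no comparison passed the test. All 90 spots of A_54_P1310 and all 88 spots of A_54_P1309 that were used lay well above background by the software's mark, and no spot was saturated (0 for each probe).

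The median spot intensity of A_54_P1310 was 1892, 1885 and 2065 in metformin pools, 1778, 2290 and 2492 in high fat diet pools, and 1434, 1597 and 1771 in control pools. On this scale, before any scaling between arrays, the control arrays were the dimmest group. The arrays themselves differed in brightness: the 75th percentile used for scaling was 252, 231 and 237 in metformin pools, 221, 279 and 323 in high fat diet pools, and 193, 221 and 225 in control pools. The level, which is the log2 of intensity over that percentile, was 2.91, 3.03 and 3.12 in metformin pools, 3.01, 3.04 and 2.95 in high fat diet pools, and 2.89, 2.85 and 2.97 in control pools. Metformin array 3 was highest and control array 2 lowest, and the ranges of all 3 groups overlapped.

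The median spot intensity of A_54_P1309 was 497, 481 and 527 in metformin pools, 428, 580 and 662 in high fat diet pools, and 320, 407 and 517 in control pools. Its level was 0.98, 1.06 and 1.15 in metformin pools, 0.95, 1.05 and 1.03 in high fat diet pools, and 0.73, 0.88 and 1.20 in control pools. The control arrays spanned the whole range of this probe, holding both its lowest and its highest value. Control array 3, the highest, was the only array on a second slide.

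Brightness also depends on the probe, so neither the 2 probes nor miR-22 and other miRNAs are set against each other by level, and how abundant miR-22 is among liver miRNAs was not tested. The course of the 2 probes over the arrays can be compared. Across the 9 arrays their levels had a correlation of 0.68, and of 0.60 after each group's mean was removed. From all spots the correlation was 0.12, and -0.23 within groups. The points share their arrays and scaling factors, so the correlation is a description of agreement and not a test. The spread between arrays of the same group (residual SD on the log2 scale) was 0.076 for A_54_P1310, and 88.9% of the 226 probes tested had a larger one. For A_54_P1309 it was 0.15, close to the median of 0.14. The spots of 1 array scattered with a coefficient of variation of 2.63% to 7.22% for A_54_P1310 and of 2.61% to 20.5% for A_54_P1309, the last on high fat diet array 1, where 4 spots were used.

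**Figure D2:**
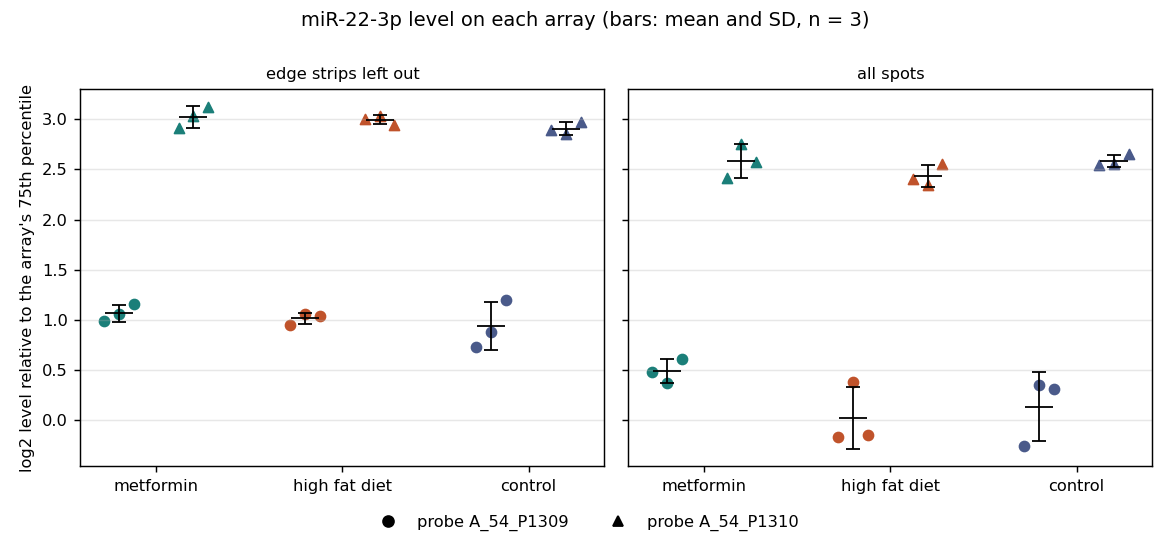
Level of miR-22-3p on each array (y axis, log2 of intensity over the array's 75th percentile) in the metformin, high fat diet and control groups (x axis), with the edge strips left out and from all spots. Symbols are arrays, circles A_54_P1309 and triangles A_54_P1310, and bars are the mean and SD of 3 arrays; with the strips left out every pair of groups overlaps for both probes.

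The first comparison asks whether the liver level of miR-22 differed on the high fat diet from chow. The level of A_54_P1310 averaged 3.00 ± 0.05 in high fat diet livers and 2.91 ± 0.06 in control livers (log2, SD, n = 3 each), a difference of 0.09 (SE 0.09, 95% confidence interval -0.11 to 0.29, limma adjusted p = 0.519). As a fold, the interval runs from 0.928 to 1.22. A_54_P1309 averaged 1.01 ± 0.06 in high fat diet livers and 0.94 ± 0.24 in control livers, a difference of 0.08 (SE 0.12, interval -0.19 to 0.34, limma adjusted p = 0.697). Of the 226 probes tested, 26 passed (11.5%), 8 of them higher and 18 lower, and 0 of the 2 miR-22-3p probes were among them. The balance of higher and lower calls depended on the processing. It was 22 higher and 4 lower with the same columns left out on every array (132 probes tested, neither miR-22-3p probe among them), 3 and 40 with normexp, 13 and 17 with quantile normalization, 12 and 16 with the mean of spots outside the strips, 2 and 0 with the percentile over all probes, and 1 and 8 from all spots. Neither probe had groups that did not overlap, as 36.7% of all probes did. The median difference of all 226 probes was 0.03, so miR-22-3p stood 0.06 (A_54_P1310) and 0.05 (A_54_P1309) above it. By the size of the difference the probes ranked 163 and 172 of 226.

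From all spots the differences between high fat diet and control were negative, -0.15 for A_54_P1310 (limma adjusted p = 0.586) and -0.11 for A_54_P1309 (limma adjusted p = 0.788), beside a median of -0.18 over the 223 probes tested in that reading, of which 4.04% passed. Relative to that median the probes stood at 0.02 and 0.06, so the sign of the raw difference was opposite in the 2 readings, while both probes lay above the median of all probes in each.

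The second comparison asks whether metformin altered miR-22 in livers of mice on the same diet. A_54_P1310 averaged 3.02 ± 0.11 in metformin livers and 3.00 ± 0.05 in high fat diet livers (log2, SD, n = 3 each), a difference of 0.02 (SE 0.09, interval -0.17 to 0.22, limma adjusted p = 0.912). A_54_P1309 averaged 1.06 ± 0.09 in metformin livers and 1.01 ± 0.06 in high fat diet livers, a difference of 0.05 (SE 0.12, interval -0.21 to 0.32, limma adjusted p = 0.886). The folds that the intervals allow run from 0.887 to 1.17 for A_54_P1310 and from 0.863 to 1.24 for A_54_P1309. No probe of the array passed limma's test in this comparison (0 of 226, 0%), while 25 had an unadjusted p under 0.05. The groups overlapped for both miR-22-3p probes, and did not for 23% of all probes. The median of all probes was -0.05.

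With all spots A_54_P1309 differed by 0.47 between metformin and high fat diet livers (interval -0.0033 to 0.94, limma adjusted p = 0.35) and A_54_P1310 by 0.15 (limma adjusted p = 0.652), beside a median of 0.19 over all probes. The 2 high fat diet arrays with strips had the low values for A_54_P1309 in that reading: its level was 0.48, 0.37 and 0.61 on the metformin arrays, and -0.17, 0.37 and -0.15 on the high fat diet arrays, of which only array 2 had no strip. A_54_P1310 did not follow that order: its level from all spots was 2.41, 2.75 and 2.58 in metformin pools, and 2.41, 2.34 and 2.55 in high fat diet pools, with array 2 the lowest.

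The third comparison sets metformin livers against chow-fed controls and so spans both the diet and the drug; it shares its arrays with the other comparisons. A_54_P1310 averaged 3.02 ± 0.11 in metformin livers and 2.91 ± 0.06 in control livers (SD, n = 3 each), a difference of 0.11 (SE 0.09, interval -0.08 to 0.31, limma adjusted p = 0.523). A_54_P1309 averaged 1.06 ± 0.09 in metformin livers and 0.94 ± 0.24 in control livers, a difference of 0.13 (SE 0.12, interval -0.13 to 0.39, limma adjusted p = 0.575). 2 of 226 probes passed (0.885%), 1 higher and 1 lower, neither of them for miR-22; with the percentile over all probes 159 were higher and 0 lower, and with quantile normalization 1 and 3. The groups overlapped for both probes, and did not for 25.2% of all probes. From all spots A_54_P1310 differed by -0.0059 (limma adjusted p = 0.989). A_54_P1309 differed by 0.35 there (limma adjusted p = 0.616), with its metformin arrays all above its control arrays, as 19.7% of all probes had groups apart in that reading.

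In the main fit, the upper limits of the intervals in the 3 comparisons stayed between 1.17-fold and 1.31-fold. The lower limits there stayed between 0.863-fold and 0.944-fold. Some other settings allowed more. Scaled to the percentile over all probes, the upper limits for metformin against control were 1.56 (A_54_P1309) and 1.55 (A_54_P1310) on the log2 scale. The median difference of all probes was 0.82 in that setting. Without control array 1, the upper limit of A_54_P1310 for metformin against control was 0.49 on the log2 scale. From all spots the upper limit of A_54_P1309 was 1.92-fold for metformin against high fat diet and 1.77-fold for metformin against control. With the row of the slide fitted as a block, and control array 3 left out, its upper limit for high fat diet against control was 0.74 on the log2 scale. Missing the threshold does not show that the groups are alike. Differences inside the limits of each setting were not resolved with 3 pools a group. With 3 arrays against 3, an exact permutation test of a single probe could not have gone below p = 0.1.

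**Figure D3:**
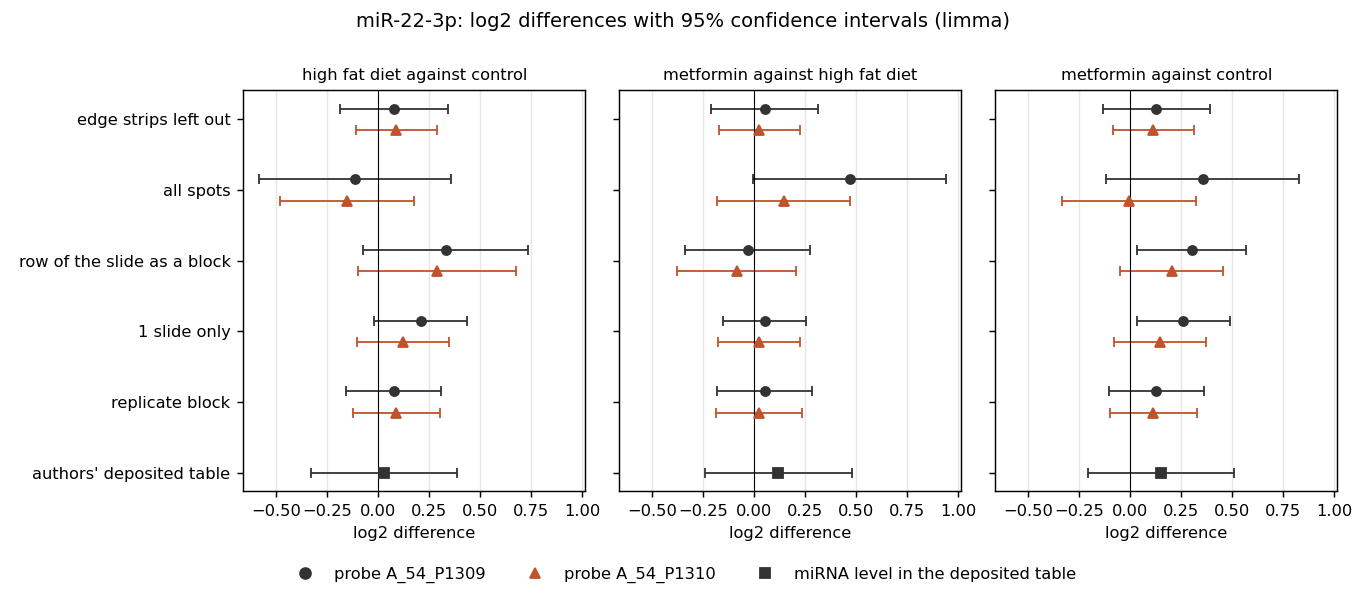
Log2 differences of miR-22-3p (x axis) with 95% confidence intervals from limma, for the 3 comparisons (panels) under 6 ways of processing (y axis). Circles are A_54_P1309, triangles A_54_P1310 and squares the miRNA level in the authors' deposited table; in the top row, with the edge strips left out and all 9 arrays, every interval includes 0, and from all spots the differences between high fat diet and control lie left of 0. The unadjusted intervals of A_54_P1309 in metformin against control exclude 0 with the row of the slide as a block and on 1 slide only. Both of these settings leave out control array 3.

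Position on the slide could be separated from the groups only in part. One slide held 8 arrays in 2 rows, with the 3 high fat diet arrays and metformin array 1 in the first row and metformin arrays 2 and 3 and control arrays 1 and 2 in the second. Within the first row, metformin array 1 stood against the 3 high fat diet arrays at -0.03 for A_54_P1309 and -0.09 for A_54_P1310. Within the second row, the 2 metformin arrays exceeded the 2 control arrays by 0.30 for A_54_P1309 and 0.20 for A_54_P1310. No row of that slide held both high fat diet and control arrays, so the difference could be had within rows only through the metformin arrays. That fit, which also left out control array 3, gave 0.33 (SE 0.18, limma adjusted p = 0.293) for A_54_P1309 and 0.29 (SE 0.17, limma adjusted p = 0.334) for A_54_P1310. Without control array 3 but with no row block, which also is the fit on 1 slide, the difference between high fat diet and control was 0.21 for A_54_P1309 and 0.12 for A_54_P1310 (limma adjusted p = 0.142 and 0.368). Metformin against control was then 0.26 for A_54_P1309 and 0.15 for A_54_P1310 (limma adjusted p = 0.142 and 0.375). The difference of A_54_P1309 in both comparisons with controls was thus smaller with control array 3 than without it, and it did not pass either way.

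The authors' deposited table gives 1 log2 value for miR-22-3p on each array. It was 6.86, 7.15 and 6.98 in metformin pools, 7.45, 7.18 and 6.44 in high fat diet pools, and 7.20, 6.94 and 7.12 in control pools. The high fat diet group held both the highest and the lowest value. Against the scanner files, each value is that array's total signal for the miRNA on the log2 scale plus a constant of the array between -2.35 and -0.71, and how the constants were chosen is not stated. After each array was centred on its median, limma on the deposited table gave 0.03 for high fat diet against control (adjusted p = 0.969), 0.12 for metformin against high fat diet (adjusted p = 0.957) and 0.15 for metformin against control (adjusted p = 0.625) over 155 miRNAs.

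**Figure D4:**
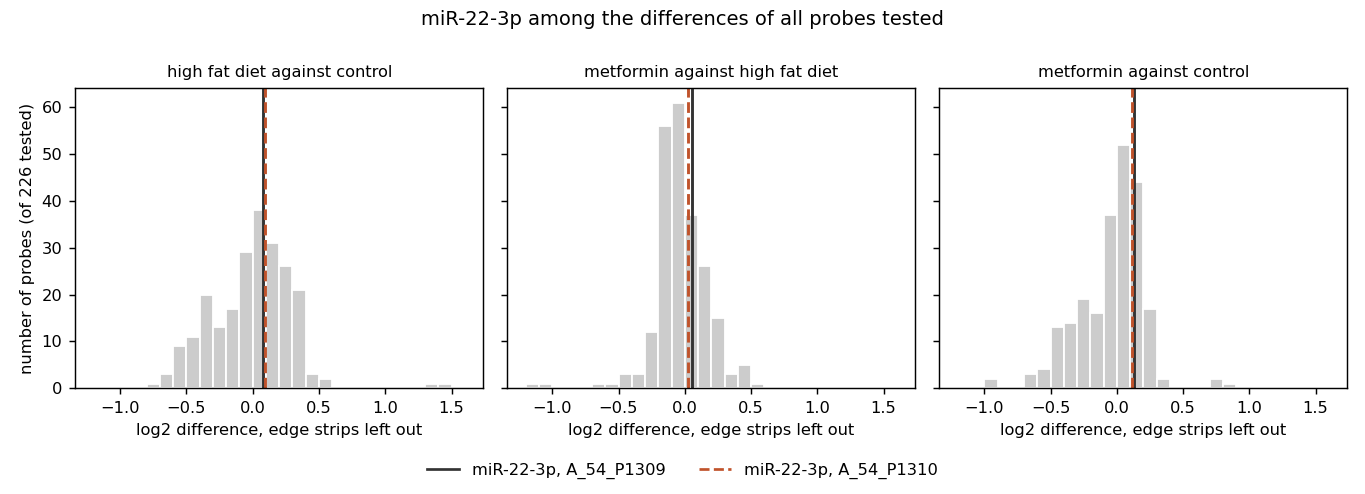
Number of the 226 probes tested (y axis) by their log2 difference with the edge strips left out (x axis, bins of 0.1), for each comparison. The vertical lines are the miR-22-3p probes, solid for A_54_P1309 and dashed for A_54_P1310; in every panel they stand in the central mass, a little to the right of the median of all probes (0.03, -0.05 and 0.02 from left to right).

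miR-22-5p, the strand opposite the guide in the hairpin, stayed near the background of the array. The median intensity of A_54_P3451 was 9.51, 7.62 and 8.04 in metformin pools, 8.57, 11.7 and 12.9 in high fat diet pools, and 8.39, 8.54 and 9.23 in control pools. It exceeded the 95th percentile of the 1000 negative control spots on 9 of 9 arrays, a percentile that lay between 5.50 and 10.1. Yet 37 of its 110 used spots were marked well above background, and it met the detection rule, more than a share of 0.5 of the used spots, on 1 of 9 arrays, high fat diet array 3, with 9 of 12 spots. That was also the only array (1 of 9) on which it was brighter than the dimmest detected probe. The probe counts among the detected ones there, so it could not have lain below the dimmest, and the 2 observations are not separate. These intensities are unscaled. Over the scaling percentile of each array, the probe stood at 0.0387, 0.0421 and 0.0398 in high fat diet pools. It stood at 0.0435, 0.0386 and 0.0410 in control pools and at 0.0378, 0.0330 and 0.0339 in metformin pools. High fat diet array 3 thus lay under the floor of 0.0406.

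The other miR-22-5p probe, A_54_P3450, had a median intensity of 5.58, 5.22 and 6.43 in metformin pools, 5.41, 5.71 and 5.90 in high fat diet pools, and 2.85, 4.04 and 5.68 in control pools. It lay below the 95th percentile of the negative spots on every array (above it on 0 of 9), and 3 of its 103 used spots were well above background. The 3 groups overlapped: metformin arrays 1 and 2 and high fat diet array 1 lay below control array 3. Since neither probe was detected on all 3 arrays of any group, miR-22-5p was not among the 226 probes tested, and no fold is given. Its level was not well above background in the metformin and control groups by either probe. A_54_P3451 met the detection rule on 1 of 3 high fat diet arrays, where its scaled value lay under the floor.

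The software's own call differs from this one. It marked miR-22-5p as detected on 6 of 9 arrays (the 3 metformin arrays, high fat diet arrays 2 and 3 and control array 3), with total signals of 2.16, 1.45 and 1.90 on the metformin arrays, 2.34 and 2.43 on those high fat diet arrays and 1.94 on that control array. The same measure for miR-22-3p, detected on 9 of 9 arrays, ran from 255 to 607. On the 3 arrays without the mark the total signal of miR-22-5p stands at a fixed 0.1, and those 3 arrays all had edge strips. A contrast of the deposited values of miR-22-5p would therefore set measured values against that fixed entry, and none was made.

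**Figure D5:**
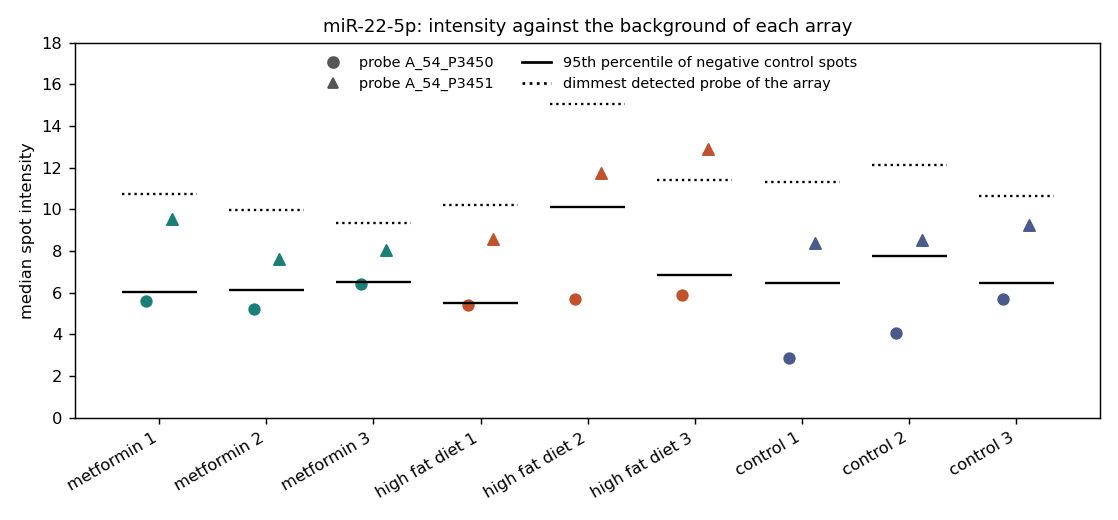
Median spot intensity (y axis, linear, arbitrary units) of the miR-22-5p probes on each array (x axis), circles for A_54_P3450 and triangles for A_54_P3451. Solid lines mark the 95th percentile of the negative control spots and dotted lines the dimmest detected probe of the array; the circles lie under the solid lines, and the triangles lie above them and, except on high fat diet array 3, under the dotted lines.

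The miRNAs whose level over the 9 arrays was most like that of miR-22-3p were found by correlation with A_54_P1310, over 117 other miRNAs detected on all arrays, with a median correlation of 0.27. miR-350-3p came first at 0.91, followed by miR-24-3p at 0.83, miR-139-5p at 0.83, miR-322-5p at 0.78 and miR-425-5p at 0.75. Within groups the correlations were 0.98 for miR-350-3p, 0.80 for miR-24-3p, 0.76 for miR-139-5p, 0.76 for miR-322-5p and 0.70 for miR-425-5p. The points share array and scaling, and the likeness depends on the reading: from all spots the closest 5 were miR-20a-5p (0.91), miR-5126 (0.77), miR-1839-3p (0.76), miR-5100 (0.73) and miR-30a-3p (0.71), none of which is among the first 5. miR-3963 (-0.81) and miR-8101 (-0.75) were least like it.

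miR-350-3p had levels of -3.86, -3.73 and -3.50 in metformin pools, -3.61, -3.57 and -3.71 in high fat diet pools, and -4.02, -4.06 and -3.85 in control pools. Its high fat diet arrays all lay above its control arrays, by 0.35 in the mean (SE 0.11, limma adjusted p = 0.0681). miR-425-5p rose in high fat diet livers, by 0.37 over control livers (SE 0.09, limma adjusted p = 0.0264), and miR-3963 fell by 0.53 (SE 0.13, limma adjusted p = 0.0264) and miR-8101 by 0.54 (SE 0.14, limma adjusted p = 0.0303). From all spots the difference of miR-425-5p was 0.16 (limma adjusted p = 0.636), that of miR-8101 was -0.55 (limma adjusted p = 0.158), and that of miR-3963 was -0.83 (limma adjusted p = 0.0487). The other miRNAs named for their likeness did not pass in that comparison: miR-24-3p differed by 0.17, miR-139-5p by 0.15 and miR-322-5p by 0.39 (limma adjusted p = 0.189, 0.352 and 0.0887). Several of these probes were dim, with the floor at -4.62 on this log2 scale. The lowest level of miR-350-3p was -4.06, that of miR-425-5p -3.78 and that of miR-8101 -3.89.

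Other miRNAs with reported roles in hepatic lipid and cholesterol metabolism were followed as a list of 18 regulators, of which 10 were tested. 2 of the 10 rose in high fat diet livers and 0 fell, with a median difference from control of 0.21, against 6 higher, 12 lower and a median of 0.03 over all 143 miRNAs tested, 1 probe each. miR-34a-5p, which targets Sirt1 as miR-22-3p is reported to do, was 1.37 higher on the log2 scale (SE 0.14, limma adjusted p = 0.000304). miR-185-5p, reported to target the scavenger receptor gene Scarb1, was 0.53 higher (SE 0.10, limma adjusted p = 0.00835). From all spots miR-34a-5p differed by 0.84 (limma adjusted p = 0.0487) and miR-185-5p by 0.42 (limma adjusted p = 0.145). In that reading 1 of the 10 passed, 4 were positive and the median was -0.087, of opposite sign, against -0.22 over all miRNAs.

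In metformin livers miR-34a-5p differed by -0.56 from high fat diet livers (limma adjusted p = 0.14) and by 0.80 from control livers (limma adjusted p = 0.019). From all spots the call against control livers was lost: miR-34a-5p differed there by 0.63 from control livers (limma adjusted p = 0.251) and by -0.21 from high fat diet livers (limma adjusted p = 0.648). None of the 10 listed regulators passed between metformin and high fat diet livers (0 higher, 0 lower by limma), where their median was -0.12 against -0.06 over all miRNAs; from all spots that median was 0.053, with 8 of 10 positive, against 0.16 over all miRNAs. Between metformin and control livers miR-34a-5p was the 1 of the 10 that passed with the strips left out, and 0 passed from all spots; the median was 0.13 against -0.0037 over all miRNAs, and 0.065 against 0.019 from all spots.

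Of 15 listed miRNAs with reported roles in insulin signalling and glucose handling, 11 were tested, and none passed between high fat diet and control livers (0 higher, 0 lower by limma). Their differences were all positive (11 of 11), with a median of 0.20, where 78 of all 143 were positive, and miR-152-3p had the largest at 0.33 (limma adjusted p = 0.0744). From all spots 4 of the 11 were positive and the median was -0.0043, against 37 of 139 and -0.22 over all. None passed in the other comparisons; miR-451a, also the marker of red blood cells here, differed by -1.01 between metformin and high fat diet livers (limma adjusted p = 0.149) and by -0.90 between metformin and control livers (limma adjusted p = 0.121).

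Markers of liver cell types were followed in the same fit. Of 9 hepatocyte markers 6 were tested, miR-122-5p, the defining one, among them, and none passed between high fat diet and control livers, with a median of 0.15 and the largest difference in miR-148a-3p (0.37, limma adjusted p = 0.0744). From all spots that median was -0.16, with 1 of 6 positive against 4 of 6 with the strips left out. Their medians were -0.03 between metformin and high fat diet livers and 0.06 between metformin and control livers, and from all spots 0.027 and -0.13, with none passing. Of 7 stellate and mesenchymal markers 3 were tested, and miR-199a-3p was 0.31 higher in high fat diet than control livers (limma adjusted p = 0.0337). Of 7 leukocyte markers 4 were tested, and 1 passed: miR-342-3p was 0.39 higher there (limma adjusted p = 0.0216), while miR-142a-3p differed by -0.13, miR-223-3p by 0.09 and miR-146a-5p by 0.15. The leukocyte median was 0.12, and from all spots it was -0.29 with 1 of the 4 positive. From all spots neither passed (limma adjusted p = 0.167 for miR-199a-3p and 0.368 for miR-342-3p).

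The summed level of the 3 stellate and mesenchymal markers, in units of each array's scaling percentile, ran from 0.334 to 0.348 in metformin pools, 0.360 to 0.426 in high fat diet pools and 0.305 to 0.315 in control pools. That of the 4 leukocyte markers ran from 0.502 to 0.562 in metformin pools, 0.568 to 0.634 in high fat diet pools and 0.488 to 0.577 in control pools. The endothelial marker miR-126a-3p, 1 of 2 tested, ran from 2.69 to 3.28 in metformin pools, 3.13 to 3.19 in high fat diet pools and 2.62 to 2.93 in control pools. The erythroid marker miR-451a, 1 of 5 tested, ran from 0.260 to 0.303 in metformin pools, 0.504 to 0.695 in high fat diet pools and 0.337 to 0.915 in control pools. The listed markers not counted as tested did not meet the filters on spots and detection or had no match by name. The high fat diet arrays stood apart from the control arrays in the stellate sum and the endothelial marker. They stood above the metformin arrays in the stellate and the leukocyte sums, the latter narrowly (0.568 at lowest against 0.562 at highest). Of the leukocyte markers, miR-146a-5p and miR-342-3p did so singly, while miR-142a-3p and miR-223-3p overlapped there. Some summed members lay near the floor. The mean log2 level of miR-142a-3p was -4.31 in metformin livers, and that of miR-199b-5p was -4.10 in control livers. In the stellate sum the metformin arrays also stood above the control arrays. Of its 3 members only miR-199a-3p did so singly, while miR-199a-5p and miR-199b-5p overlapped there. miR-199b-5p overlapped between every pair of groups. The metformin arrays lay below all others in the erythroid marker. For scale, 36.7% of all probes, each taken singly and not summed, had no overlap between high fat diet and control arrays. That share was 23% between metformin and high fat diet arrays and 25.2% between metformin and control arrays. Some directions depended on the reading. From all spots the endothelial marker differed by -0.42 between high fat diet and control livers, against 0.18 with the strips left out. The 4 leukocyte markers then differed by 0.015 to 0.24 between metformin and high fat diet livers, against -0.28 to -0.13. The stellate markers stayed higher in high fat diet than control livers from all spots (3 of 3 positive, median 0.50 against 0.31). Between metformin and high fat diet livers 1 of the 3 was positive there, against 0 of 3. For miR-451a the metformin livers differed by -0.82 from high fat diet and by -0.93 from control livers, the same direction as with the strips left out. Whether these shifts have a part in the level of miR-22-3p was not tested.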

How the data were processed

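The 9 scanner files hold spot intensity as deposited, which per the file headers comes from Agilent Feature Extraction 11.5.1.1, whereas the submitters' processing notes name version 10.7. The deposited series table holds log2 values. Background-subtracted intensities were used, without the edge strips of each array. To find them, probes whose 80th percentile over spots passed an intensity of 100 were taken, and their spots under 50% of that percentile were called dead. From either edge inward, blocks of 4 columns were dropped until 2 blocks in a row had under 10% dead spots. Each probe became the median of its other spots that carried no non-uniformity mark (at least 3 on each array, which dropped 425 probes and kept 3990). Detection needed a share above 0.5 of used spots well above background. The scaling factor of an array was the 75th percentile of the 187 probes detected everywhere. After scaling, values under 0.0406, which is the 1st percentile of detected values, were set to it, and log2 was taken. The 226 probes detected on all 3 arrays of a group were tested with limma 3.58.1 in R 4.3.3 (with the package data.table, version 1.17.8), as 3 group means over 9 arrays, two-sided, adjusted by Benjamini-Hochberg over all of them at 0.05. The procedure was tested on simulated data.

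The all-spots reading took the mean of spots without outlier marks over the whole array. Its detection rule counts every spot, giving 124 scaling probes; a rule over unmarked spots was run first and replaced after its output was seen, and its values are given too. The mean signal column was not available for normexp (offset 50), so the median signal column was used. For a miRNA with several probes, the lists and the likeness use the probe with the highest mean. Named miRNAs are the members, those with the 5 highest and 2 lowest correlations, and from each list up to 4 that passed or the one with the largest difference; the all-spots neighbours were named after their values were seen. The members and lists were chosen with earlier results of these data known. No pairing by replicate number is stated, and none was used in the main fit. Deviations of same-numbered arrays correlated between -0.20 and 0.44. Differently numbered arrays were not compared, so these values cannot exclude a pairing. The number of arrays limits the precision.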

Additional observations from a re-analysis of the deposited data

How the results depend on the processing

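Of 126 values of miR-22-3p under 22 other settings, 112 kept their sign and their side of the threshold, 12 had the opposite sign or were 0, and 2 passed. Apart from those 2, both under the percentile over all probes, the lowest adjusted p was 0.14. The cause of each change was not tested. The 112 values are not separate checks, since some settings left a difference exactly as in the main fit. For A_54_P1309 in high fat diet against control it stayed at 0.08 with only probes detected on all arrays and with no filter. It also stayed there with the replicate block and without any single metformin array. The fit with the slide as a block and the fit without control array 3 are the same fit, and both were counted.

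Values of opposite sign are these. For high fat diet against control, all spots gave -0.11 (A_54_P1309) and -0.15 (A_54_P1310), and all spots with detection over unmarked spots, added after seeing the data, gave -0.026 (A_54_P1310). For metformin against control, A_54_P1310 gave -0.0059 from all spots, -0.043 with detection over unmarked spots and 0 after quantile normalization. For metformin against high fat diet, the row of the slide as a block gave -0.031 (A_54_P1309) and -0.085 (A_54_P1310). There A_54_P1310 also gave -0.017 with detection over unmarked spots and -0.028 after quantile normalization, and it was -0.00025 without high fat diet replicate 3 and -0.027 without metformin replicate 3. Scaling to the percentile over all probes gave 0.94 (A_54_P1309) and 0.92 (A_54_P1310) for metformin against control (adjusted p = 0.0148 for both), beside a median of 0.82 over all probes, above which the probes stood by 0.12 and 0.10.

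Leaving out 1 array at a time gave, for A_54_P1309, 0.06 to 0.21 for high fat diet against control, 0.01 to 0.10 for metformin against high fat diet and 0.08 to 0.26 for metformin against control. For A_54_P1310 it gave 0.08 to 0.18, -0.027 to 0.080 and 0.06 to 0.25 in the same order, with none passing. With the replicate block the differences were unchanged in value and none passed (adjusted p = 0.637 for A_54_P1309 and 0.547 for A_54_P1310 in high fat diet against control); over all probes 26, 0 and 6 passed.

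Counts of probes passing moved more. High fat diet against control had 26 (8 higher, 18 lower), and 26 with the same columns left out on every array (22 higher, 4 lower), 9 from all spots, 0 with detection over unmarked spots (41 at an unadjusted p under 0.05), 43 with normexp (3 higher, 40 lower), 2 with the percentile over all probes, 0 with no filter (70 unadjusted), 1 in the authors' deposited table, 60 on 1 slide, 0 with the row as a block (45 unadjusted) and 5 to 60 without 1 array. Metformin against high fat diet had 0, and 2 with the mean of spots outside the strips, 2 with probes detected on all arrays, 2 with 1 probe per miRNA, 2 in the deposited table and 0 to 4 without 1 array. Metformin against control had 2, and 0 from all spots and 0 with detection over unmarked spots (22 and 25 unadjusted), 1 with the same columns left out on every array, 0 with normexp (56 unadjusted), 4 with quantile normalization, 159 with the percentile over all probes, 5 with probes detected on all arrays, 0 with no filter (47 unadjusted), 1 in the deposited table, 15 on 1 slide, 16 with the row as a block, 6 with the replicate block and 0 to 15 without 1 array.

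With the same columns left out on every array, both miR-22-3p probes kept too few spots, so that setting gave no value for them. No difference is given for miR-22-5p under any setting, since its signal over background sets the limit.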
